A study of Mus musculus with 4 samples.

Results

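The nuclear genes for the subunits of respiratory complexes II, III, IV and V were examined, together with cytochrome c, which carries electrons from complex III to complex IV. Members were the protein-coding rows of the count table named Sdha, Sdhb, Sdhc, Sdhd, Cyc1 or Cycs, and those whose symbols begin with Uqcr, Cox5, Cox6, Cox7, Cox8 or Atp5. This gave 47 of the 37620 genes in the table: 4 of complex II, 9 of complex III, 1 for cytochrome c, 16 of complex IV and 17 of complex V. Cox4i1 and Cox4i2 were left out by the rule, as were Atp5l-ps1 and Atp5l2, which are pseudogenes by name or annotation and had at most 4 counts in any library. The rule itself uses symbols and annotation, not measured values.

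RNA-seq had been done on mouse embryonic stem cells (mESCs) of 2 lines, with 2 libraries for each line. In both lines the endogenous CTCF, an architectural protein of chromatin, carried an auxin-inducible degron tag and was removed with auxin, while another copy was supplied from a vector with Hygromycin selection. The copy was wild-type CTCF in the WT_CTCF line, and in the MUT_CTCF line it was CTCF whose threonine at the O-GlcNAc site had been replaced by alanine. The cells grew on gelatin in medium with serum and LIF, each line was expanded from a clone picked for a CTCF level near the endogenous level, and whether the replicate libraries came from separate cultures is stated only as biological replication. Line, clone and mutation therefore cannot be told apart, and p-values measure the spread between these libraries.

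The libraries held 40524694 to 40977464 counts each, and the members took 1.06% of them. Ctcf had 18302 and 18669 normalized counts in WT_CTCF and 18791 and 19325 in MUT_CTCF, and the counts do not separate the copies. Summed markers of embryonic stem cells were 6528 to 6582 CPM (reads scaled to library size) in WT_CTCF and 6483 to 6485 CPM in MUT_CTCF, all 10 of them above 0. Among these markers edgeR called Utf1 (log2 fold change -0.21) and Dppa5a (-0.099) lower and Sox2 (0.095) higher. Fibroblast markers summed to 45.6 to 51.8 CPM over both lines with Lum at 0, and markers of heart and skeletal muscle to 15.2 to 18.4 CPM. Primitive endoderm markers summed to 15.1 to 15.7 CPM in WT_CTCF and 16.2 to 20.7 CPM in MUT_CTCF, and trophectoderm markers to 17.3 to 19.5 CPM and 13.8 to 14.6 CPM. Of the trophectoderm markers edgeR called Cdx2 lower (log2 fold change -0.97, adjusted p = 0.000227). It had 274 and 299 normalized counts in WT_CTCF and 132 and 160 in MUT_CTCF. No tested marker of fibroblasts, primitive endoderm or muscle was called. The part of these differences in the results was not tested. In bulk RNA, fewer cells of a type and less RNA per cell cannot be told apart.

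The respiratory chain passes electrons to oxygen and stores the energy as a proton gradient across the inner mitochondrial membrane. Complex II (succinate dehydrogenase) takes electrons from succinate and pumps no protons, complex III (the cytochrome bc1 complex) moves them to cytochrome c, complex IV (cytochrome c oxidase) reduces oxygen, and complex V (the ATP synthase) makes ATP as protons flow back. Complex II is built from nuclear genes alone. Complexes III, IV and V also need subunits from the mitochondrial genome, so that 2 genomes must supply each of them. Embryonic stem cells rely strongly on glycolysis while keeping an active respiratory chain.

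The promoters are shown for the c-ring genes Atp5g1, Atp5g2 and Atp5g3, which encode the same mature protein and of which Atp5g1 alone was called, for Cox7b, the other member called, and for Cox6b1 and Uqcrh, whose adjusted p lay just outside the threshold. Each line gives the 250 bases before the RefSeq transcription start on GRCm38.p6, 5′ to 3′ on the strand of the gene. Capitals mark the searched motifs that lie wholly in these bases. The windows are chr11:96075632-96075881, chr15:102671048-102671297 and chr2:73911327-73911576 for the c-ring genes in that order, chrX:106015450-106015699 for Cox7b, chr7:30626115-30626364 for Cox6b1 and chr4:116075071-116075320 for Uqcrh. Cox7b lies on the plus strand and the others on the minus strand.
Atp5g1: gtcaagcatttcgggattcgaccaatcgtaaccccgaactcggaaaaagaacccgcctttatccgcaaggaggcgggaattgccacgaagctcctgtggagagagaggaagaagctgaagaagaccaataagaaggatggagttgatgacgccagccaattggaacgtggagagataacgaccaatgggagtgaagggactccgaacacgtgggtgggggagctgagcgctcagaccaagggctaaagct
Atp5g2: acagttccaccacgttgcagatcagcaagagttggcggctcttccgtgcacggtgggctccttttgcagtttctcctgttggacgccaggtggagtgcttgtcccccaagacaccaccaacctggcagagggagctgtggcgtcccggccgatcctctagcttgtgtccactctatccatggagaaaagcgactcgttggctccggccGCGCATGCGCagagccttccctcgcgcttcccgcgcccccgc
Atp5g3: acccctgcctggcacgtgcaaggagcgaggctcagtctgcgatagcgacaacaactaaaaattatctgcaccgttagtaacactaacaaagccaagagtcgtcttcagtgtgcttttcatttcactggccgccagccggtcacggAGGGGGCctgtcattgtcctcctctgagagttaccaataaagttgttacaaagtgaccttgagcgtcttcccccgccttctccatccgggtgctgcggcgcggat
Cox7b: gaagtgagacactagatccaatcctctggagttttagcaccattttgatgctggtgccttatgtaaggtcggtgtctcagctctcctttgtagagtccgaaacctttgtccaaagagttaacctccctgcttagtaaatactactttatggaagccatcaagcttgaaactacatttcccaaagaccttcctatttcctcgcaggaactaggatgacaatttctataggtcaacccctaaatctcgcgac
Cox6b1: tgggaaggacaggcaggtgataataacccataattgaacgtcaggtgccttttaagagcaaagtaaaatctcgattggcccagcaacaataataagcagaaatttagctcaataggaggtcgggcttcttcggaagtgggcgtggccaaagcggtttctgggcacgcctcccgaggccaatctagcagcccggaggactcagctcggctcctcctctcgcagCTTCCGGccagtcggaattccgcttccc
Uqcrh: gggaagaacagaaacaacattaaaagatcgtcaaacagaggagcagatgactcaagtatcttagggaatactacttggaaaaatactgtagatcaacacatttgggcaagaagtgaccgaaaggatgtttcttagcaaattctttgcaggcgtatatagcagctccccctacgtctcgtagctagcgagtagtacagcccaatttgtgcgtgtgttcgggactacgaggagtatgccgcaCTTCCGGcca

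The search covered both strands of windows from 250 bases before to 50 bases after the start, which RefSeq gave for 38 of the 47 members (42 promoters) and for 32851 promoters in all. Letters of NRF1, a factor known for respiratory genes, were GCGCATGC and occurred in 19% of member promoters against 2.71% of all promoters. The ETS letters bound by GABP, CCGGAAG, occurred in 28.6% against 8.86%, and the YY1 letters AAGATGGC in 11.9% against 2.75%. The SP1 letters GGGCGG occurred in 35.7% of both, and the core letters AGGGGGC of the CTCF motif in 21.4% against 10.6%. CTCF core and SP1 matches share bases in the promoters of Atp5e, Atp5f1 and Cox6a1. Neither Atp5g1 nor Cox7b held any of these letters in its window. Atp5g2 had NRF1 letters on both strands 42 and 40 bases before the start. It also had SP1 letters from 4 bases before the start, which cross it and are not in capitals above. Atp5g3 had the CTCF core letters 105 bases before the start, and Cox6b1 and Uqcrh an ETS match 28 and 10 bases before it. The 8 members with NRF1 letters stood at a median of -0.076 on the log2 scale and the 29 other tested members with a promoter had -0.066, while the 12 members with ETS letters had -0.082 against -0.054 for the 25 without. The 8 with CTCF core letters had -0.070 against -0.065 for 29 without, the 4 with YY1 letters -0.075 against -0.065 for 33, and the 15 with SP1 letters -0.054 against -0.084 for 22. These medians are given as a description only.

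The question was whether transcripts of these complexes differed between MUT_CTCF and WT_CTCF cells. Of the 47 members, 2 members fell and none rose. Atp5g1 of complex V fell by 9.86%, and Cox7b of complex IV fell by 13.6%. DESeq2 and edgeR's exact test also called 0 members higher, with no adjusted p from DESeq2 for 4 members. Most of the others lay slightly below their WT_CTCF level without passing the test. Of 45 members tested, 37 had a log2 fold change below 0 and 8 above, with a median of -0.065, while the median of all 16264 tested genes was 0.0034. Cox6a2 and Cox8b, isoforms known from heart and skeletal muscle, had too few counts to be tested.

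Both falls were called by edgeR's quasi-likelihood test at a Benjamini-Hochberg adjusted p under 0.05. The share called lower was 4.44% of tested members against 1.61% of all tested genes, and the share called higher was 0% against 1.56%. The study itself asked for more than a 2-fold change with an unadjusted p under 0.05, and no member passed that, against 1.3% of tested genes. At an unadjusted p under 0.05 alone, 14 members were lower and 0 higher, where 7.65% of all tested genes were lower. Both MUT_CTCF libraries lay below both WT_CTCF libraries for 30 members (66.7%) against 22.3% of tested genes, and above them for 1 member, Cox8c, also against 22.3%. A log2 fold change below 0 was found for 82.2% of members against 49.2% of tested genes. No member had a log2 fold change beyond -0.29 on the lower side. With either MUT_CTCF replicate left out, edgeR called 0 of all tested genes, members included.

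**Figure D1:**
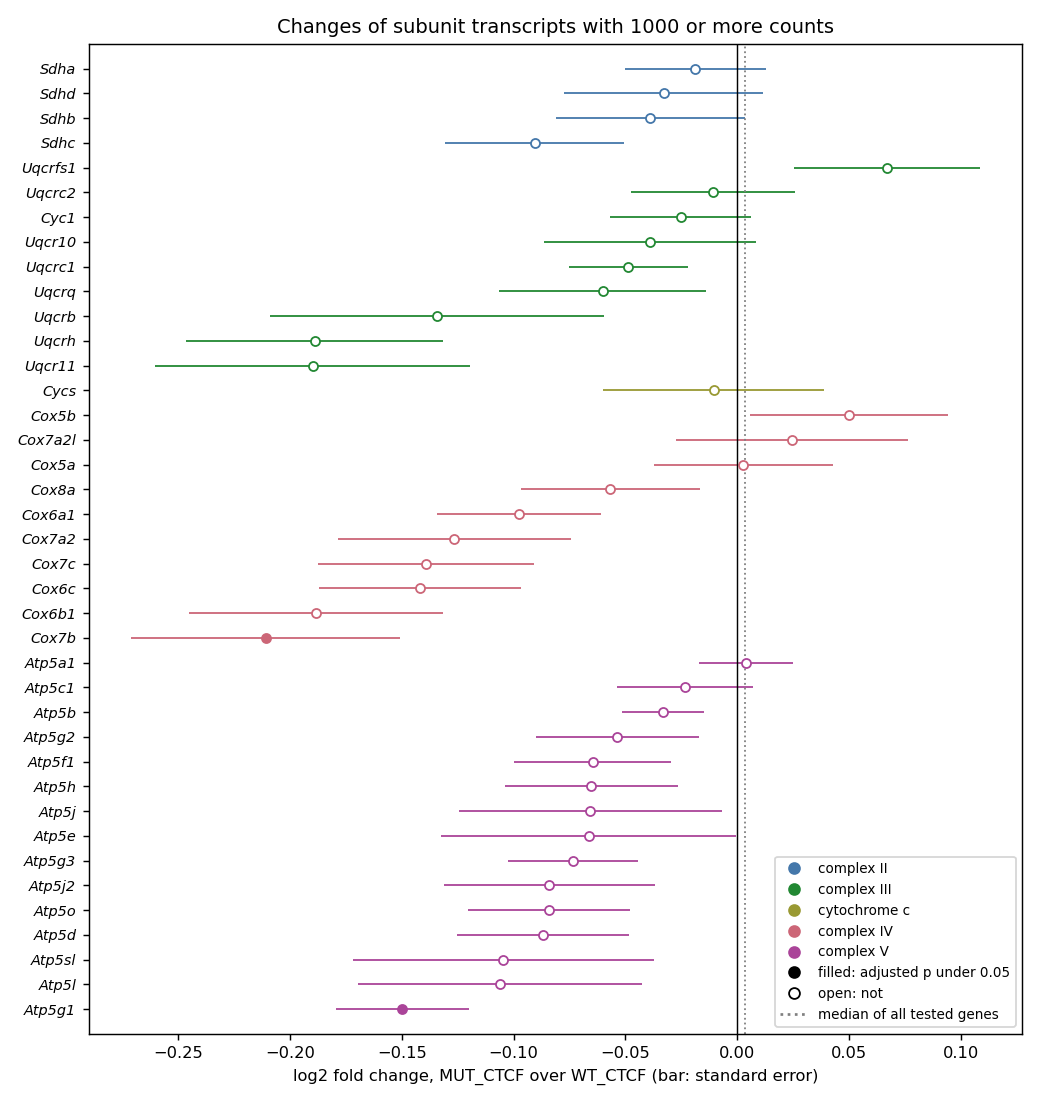
Log2 fold changes of MUT_CTCF over WT_CTCF (x axis, bars are the standard error) for the 39 members with at least 1000 normalized counts, grouped by complex and coloured by it. Filled points, Atp5g1 and Cox7b, had an adjusted p under 0.05. Of these members, 34 lie below 0 and 5 above, and the dotted line is the median of all tested genes at 0.0034.

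Abundant genes with short transcripts also lay below 0 in this comparison, and most members are of this kind. Among the 950 tested genes with at least 1000 normalized counts and a median protein-coding transcript under 1000 bases, the median log2 fold change was -0.044, 70% were below 0, 6.63% were called lower and 43.5% had both MUT_CTCF libraries below both WT_CTCF libraries. Among the 5445 such genes of 1000 bases or more the median was -0.011, 55.3% were below 0 and 2.88% were called lower. The 24 members in the short class had a median of -0.085, with 91.7% below 0, 4.17% called lower and 87.5% without overlap between the lines. The 15 members in the long class had a median of -0.025, with 80% below 0. Over the 39 members of both classes, log2 fold change was correlated with log2 transcript length (Pearson's r = 0.46, Spearman's rho = 0.51), against r = 0.20 and rho = 0.22 over 6395 abundant genes with a known length. These correlations are across genes that share the same 4 libraries and serve as a description. Removal of a smooth trend on exon length and GC content over all tested genes, at any level, left the member median at -0.048. Exon length there is the union of all exons of a gene, not the transcript length used above. For Atp5g1 these are 4908 and 691 bases, so the trend removed is not the one described here. The part of transcript length in the members' differences was not tested further.

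**Figure D2:**
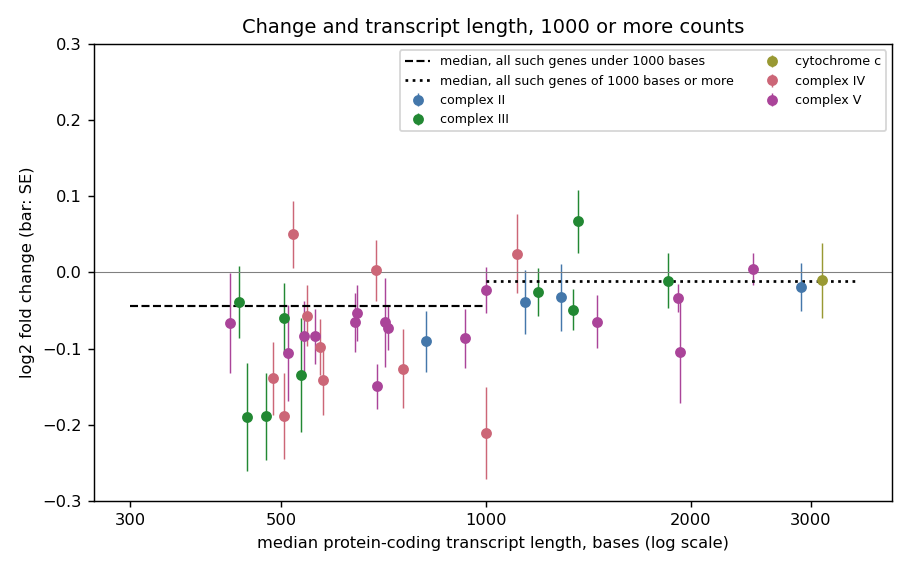
Log2 fold change (y axis, bars are the standard error) against the median protein-coding transcript length in bases (x axis, log scale) for the 39 members with at least 1000 normalized counts, coloured by complex. The dashed line is the median of all 950 abundant genes under 1000 bases (-0.044) and the dotted line that of the 5445 of 1000 bases or more (-0.011). Some members of complexes III and IV with short transcripts reach -0.19.

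Levels between genes were compared as RPKM (reads scaled to TMM-adjusted library size and to transcript length). The length was the median of a gene's protein-coding transcripts. Complex V genes were the most abundant: Atp5b, the catalytic beta subunit of the F1 head, had a mean of 1593 RPKM over the 4 libraries and Atp5a1, the alpha subunit, 664 RPKM. In complex III the highest were the core subunit Uqcrc1 at 444 RPKM and Cyc1 at 257 RPKM, and in complex IV Cox6a1 at 318 RPKM and Cox8a at 264 RPKM. Complex II genes lay between 90.3 RPKM for Sdhd and 179 RPKM for Sdhc, and Cycs had 27.4 RPKM. Lengths from the union of exons gave values up to 7.10 times lower, the largest gap being at Atp5g1, and changed the order within complexes. In complex II they reversed it, from 44.9 RPKM for Sdhc to 90.3 RPKM for Sdhd. Atp5b and Atp5a1 in complex V, Uqcrc1 and Cyc1 in complex III, and Cox8a and Cox6a1 in complex IV were the highest by either length. Reads were counted only where they mapped uniquely, and at least 50% of the 50-base windows of Atp5g2, Atp5l, Uqcrb, Cox5b and Cox7a2l occur elsewhere in the genome, so their levels and changes are uncertain. The median change of the 40 tested members outside these 5 was -0.066.

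**Figure D3:**
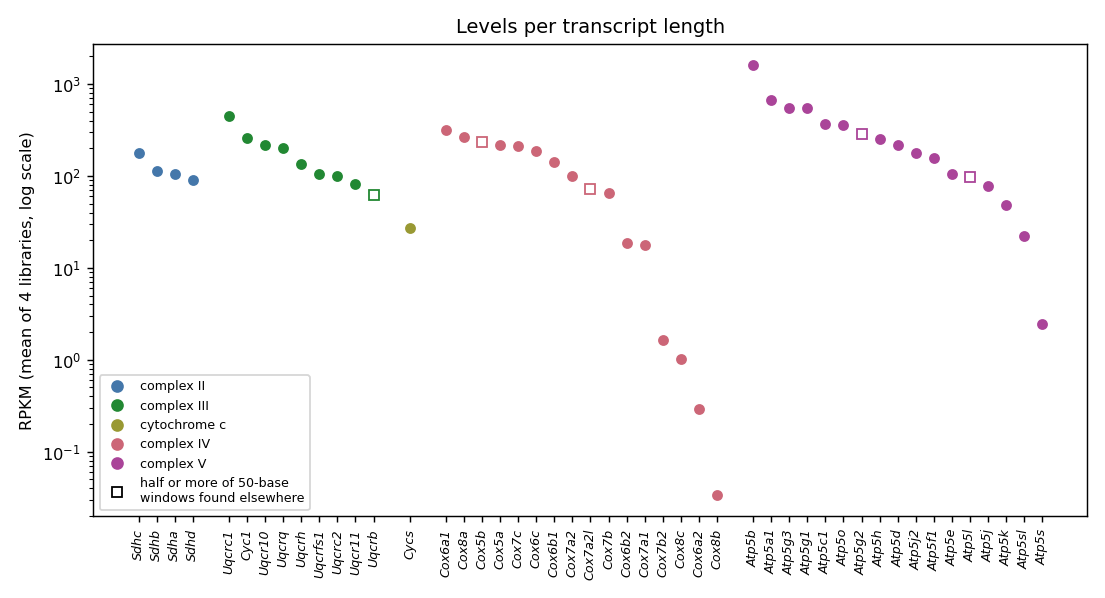
Mean level over the 4 libraries in RPKM by median transcript length (y axis, log scale) for all 47 members. Within each complex they are ordered from the highest level to the lowest. Open squares mark members with 50% or more of their windows found elsewhere in the genome. Atp5b is the highest at 1593 RPKM, and the lowest are Cox8b, Cox6a2, Cox8c and Cox7b2 of complex IV.

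In complex II, all 4 subunits lay below 0 and none was called by edgeR, with 1 lower at an unadjusted p under 0.05. Of all tested genes, 7.65% were lower at that threshold. Sdha, the flavoprotein that oxidises succinate, had 12443 and 12263 normalized counts in WT_CTCF and 12149 and 12238 in MUT_CTCF, a log2 fold change of -0.019 ± 0.032 (SE). Sdhb, the iron-sulfur subunit, had 5467 and 5253 against 5185 and 5250.1, a log2 fold change of -0.039 ± 0.042 (SE). The MUT_CTCF libraries lay under the WT_CTCF libraries for both, with the nearest libraries of the 2 lines 24.3 and 3.2 counts apart. Sdhc, which anchors the dimer in the membrane and binds haem, had 6164 and 6113 against 5710.3 and 5821, a log2 fold change of -0.090 ± 0.040 (SE, adjusted p = 0.259 from edgeR). Sdhd, the other anchor, had 4944 and 4642 against 4705 and 4664, which overlap. The median of the complex was -0.036, and between single pairs of libraries it ran from -0.074 to -0.0019.

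In complex III, 8 of 9 subunits lay below 0 and none was called by edgeR, with a median of -0.049. There were 2 lower at an unadjusted p under 0.05, as were 7.65% of all tested genes. The redox and core subunits, which carry the electrons or form the matrix-facing body, had a median of -0.018. Cyc1, the cytochrome c1 subunit, had 12546 and 12672 normalized counts in WT_CTCF and 12253 and 12525 in MUT_CTCF, with a log2 fold change of -0.025 ± 0.031 (SE). Uqcrc1 had 24682 and 24837 against 23630.4 and 24244, with a log2 fold change of -0.049 ± 0.027 (SE). The libraries of the lines did not overlap for either, although the nearest libraries for Cyc1 were 21.1 counts apart. Uqcrc2 and the Rieske iron-sulfur protein Uqcrfs1 overlapped between the lines, and Uqcrfs1 was the member of the complex above 0, at 0.067 ± 0.042 (SE).

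The 5 small subunits of complex III, which surround the core, were all lower in both MUT_CTCF libraries. Their median was -0.13 and none was called. Such a separation held for 22.3% of all tested genes and 43.5% of abundant genes with transcripts under 1000 bases. The small subunits had median transcripts of 434 to 535 bases, against 1194 to 1850 for the redox and core subunits. For Uqcr10 the nearest libraries of the 2 lines were 3.0 counts apart. Uqcrh, the hinge protein between cytochrome c1 and cytochrome c, had 2838.5 and 2695 normalized counts in WT_CTCF and 2536 and 2318 in MUT_CTCF. It changed by -0.19 ± 0.057 (SE) on the log2 scale, with an adjusted p of 0.0528 (edgeR), just outside the threshold, and edgeR's exact test called it (adjusted p = 0.0402). Uqcr11 had 1589.5 and 1603 against 1395 and 1404, with a log2 fold change of -0.19 ± 0.070 (SE, adjusted p = 0.141 from edgeR). The replicates of Uqcr11 lay close together in each line, while the MUT_CTCF replicates of Uqcrh differed by more than its nearest libraries of the 2 lines. Uqcrb, Uqcrq and Uqcr10 had log2 fold changes from -0.13 to -0.039.

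Cycs, the somatic cytochrome c, had 3584 and 3427 normalized counts in WT_CTCF and 3519 and 3440.4 in MUT_CTCF. Its libraries overlapped between the lines, and its log2 fold change was -0.010 ± 0.049 (SE, adjusted p = 0.957 from edgeR).

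In complex IV, whose nuclear subunits surround a catalytic core from the mitochondrial genome, 9 of 14 tested subunits lay below 0, Cox7b fell, and the median was -0.11. There were 7 lower at an unadjusted p under 0.05 (edgeR), as were 7.65% of all tested genes. Cox7b (ENSMUSG00000031231, chrX:103211039-103217789 on the plus strand of mm9) encodes a small subunit of the membrane part. It had 2949.7 and 2733 normalized counts in WT_CTCF and 2649.9 and 2259.8 in MUT_CTCF, that is 2841.5 ± 153 and 2455 ± 276 (SD, n = 2). Both MUT_CTCF libraries lay below both WT_CTCF libraries, but the MUT_CTCF libraries differed from each other by more than the nearest libraries of the 2 lines did. The log2 fold change was -0.21 ± 0.060 (SE, edgeR, adjusted p = 0.0350). Without WT_CTCF replicate 1 it was -0.16 (adjusted p = 0.3997), without MUT_CTCF replicate 1 it was -0.33 (adjusted p = 0.447), and without MUT_CTCF replicate 2 it was -0.10 (adjusted p = 0.642), all from edgeR. The call was also lost with DESeq2 (adjusted p = 0.139), with scaling by library size only (edgeR, adjusted p = 0.0753) and without the filter on low counts (edgeR, adjusted p = 0.456).

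Other ubiquitous subunits of complex IV lay near Cox7b without passing. Cox6b1, which links the monomers of the enzyme on the side of the intermembrane space, had 3265 and 3026 normalized counts in WT_CTCF and 2949 and 2571 in MUT_CTCF. Its log2 fold change was -0.19 ± 0.057 (SE, adjusted p = 0.0506 from edgeR), edgeR's exact test called it (adjusted p = 0.0403), and the nearest libraries of the 2 lines were 76.8 counts apart. Cox6c had a log2 fold change of -0.14 ± 0.045 (SE, adjusted p = 0.0702 from edgeR), with replicates closer to each other than the lines were. Cox7c had -0.14 ± 0.048 and Cox7a2 -0.13 ± 0.052 (SE), with adjusted p = 0.109 and 0.207 from edgeR. Cox6a1 had 7674 and 7627 against 7175 and 7126, and Cox8a had 5944 and 6034 against 5756 and 5760.5. For both, replicates lay closer to each other than the lines did, and their log2 fold changes were -0.098 and -0.057, with adjusted p = 0.150 and 0.557 from edgeR.

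Cox5a and Cox5b, the subunits that face the matrix without a membrane span, did not share this direction. Cox5a had 6246 and 5923 normalized counts in WT_CTCF and 6094 and 6098 in MUT_CTCF, a log2 fold change of 0.0028 ± 0.040 (SE). Cox5b had 4956 and 4887 against 5319 and 4871, a log2 fold change of 0.050 ± 0.044 (SE). The lines overlapped for both, and 38.7% of the exon bases of Cox5a also lie in a gene on the other strand. Cox7a2l, which takes part in supercomplexes, had 3275 and 3173 against 3405 and 3153, with overlap and a log2 fold change of 0.024 ± 0.052 (SE).

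The tissue isoforms of complex IV had far lower levels than their ubiquitous counterparts. Cox6b2, the testis isoform of Cox6b1, had 455 and 472 normalized counts in WT_CTCF and 400.5 and 356 in MUT_CTCF, that is 20.6 and 16.8 RPKM. Its log2 fold change of -0.29 ± 0.13 (SE, adjusted p = 0.241 from edgeR) was the lowest among the members, with no overlap between the lines. Cox7a1, the heart and muscle isoform of Cox7a2, had 270.4 and 233.5 against 295 and 243 normalized counts, which overlap, and Cox7a2 had 3270.2 and 3171 against 3012 and 2889, which do not. By length, Cox7a1 stood at 17.6 RPKM, Cox7a2 at 100.3 RPKM and Cox7a2l at 71.7 RPKM. Cox7b2 had 45.1 and 34.1 against 27.8 and 38.2 normalized counts, which overlap. Cox8c, a testis isoform, had 10 and 17 normalized counts in WT_CTCF and 25.8 and 26.1 in MUT_CTCF, with a log2 fold change of 0.93 ± 0.63 (SE, adjusted p = 0.533 from edgeR). Cox6a2 had 10, 4, 1 and 16 counts in WT_CTCF replicates 1 and 2 and MUT_CTCF replicates 1 and 2, and Cox8b had 0, 1, 1 and 0. A library with 0 counts of Cox8b still allows up to 3 counts, or 0.0740 CPM without TMM scaling, by counting error alone.

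**Figure D4:**
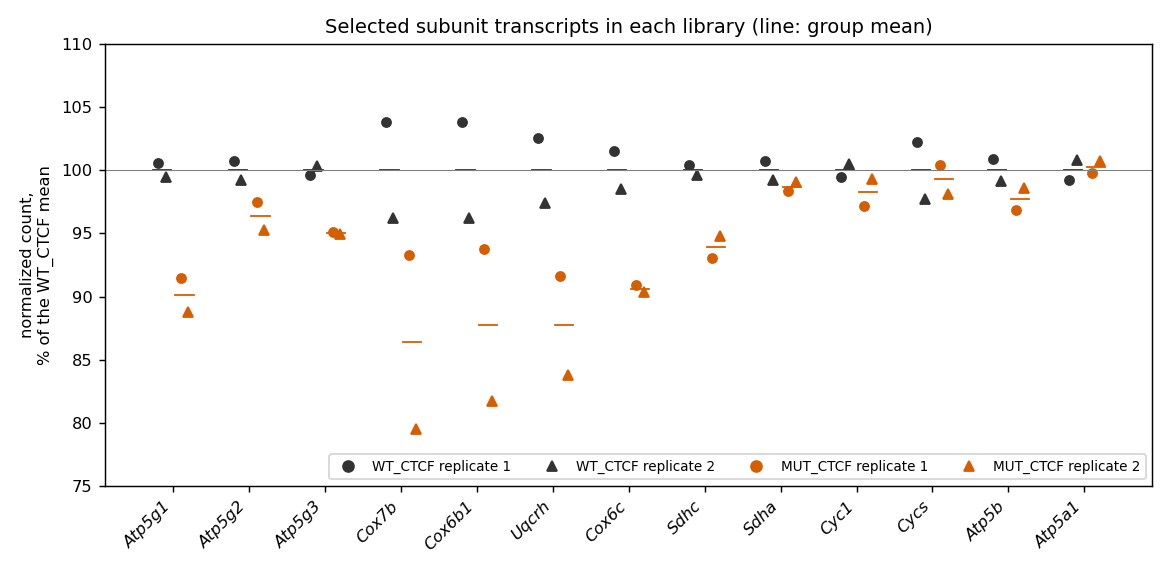
Normalized counts of 13 members in each library, as percent of the WT_CTCF mean of the gene (y axis, shown from 75 to 110); black is WT_CTCF, orange MUT_CTCF, circles replicate 1, triangles replicate 2 and short lines group means. Both MUT_CTCF libraries of Atp5g1 lie near 90%, those of Cox7b, Cox6b1 and Uqcrh are spread widely with replicate 2 the lower, and those of Cycs and Atp5a1 lie among the WT_CTCF libraries.

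In complex V, 15 of 17 members lay below 0, Atp5g1 fell, and the median was -0.066. There were 4 lower at an unadjusted p under 0.05 (edgeR), as were 7.65% of all tested genes. The c ring, which turns as protons pass, is built from a protein that 3 genes encode with different import signals. Atp5g1 (ENSMUSG00000006057, chr11:95930166-95936984 on the minus strand of mm9) had 16369 and 16191 normalized counts in WT_CTCF and 14892 and 14457 in MUT_CTCF, that is 16279.9 ± 126 and 14675 ± 308 (SD, n = 2). The gap between the lines was several times the spread within either. The log2 fold change of Atp5g1 was -0.15 ± 0.030 (SE, edgeR, adjusted p = 0.000888). Without WT_CTCF replicate 1 it was -0.14 and without WT_CTCF replicate 2 it was -0.16. Without MUT_CTCF replicate 1 it was -0.17 and without MUT_CTCF replicate 2 it was -0.13, all from edgeR. The size held, while the call was lost in most of these fits. The call was kept with all 4 libraries in DESeq2 (adjusted p = 0.000384) and in edgeR's exact test (adjusted p = 0.00261). The call was also lost without the filter on low counts (edgeR, adjusted p = 0.139), where far more genes were tested.

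The other c-ring genes lay lower in both MUT_CTCF libraries as well but did not pass. Such a separation held for 22.3% of all tested genes and 43.5% of abundant genes with transcripts under 1000 bases. Atp5g3 had 16557 and 16671 normalized counts in WT_CTCF and 15806.5 and 15772 in MUT_CTCF, a log2 fold change of -0.073 ± 0.029 (SE, adjusted p = 0.183 from edgeR). Atp5g2 had 7758 and 7644 against 7506 and 7335, a log2 fold change of -0.054 ± 0.037 (SE, adjusted p = 0.538 from edgeR), and all of its 50-base windows occur elsewhere in the genome. By median transcript length the order was Atp5g3 at 553 RPKM, Atp5g1 at 549 RPKM and Atp5g2 at 286.5 RPKM, and by the union of exons it was Atp5g2 at 286.5, Atp5g3 at 182 and Atp5g1 at 77.3 RPKM. By median transcript length, Atp5g1 in WT_CTCF stood at 578 ± 4.5 RPKM and Atp5g3 at 567 ± 2.7 RPKM, and in MUT_CTCF at 521 ± 11 and 539 ± 0.83 RPKM (SD, n = 2). The order of the 3 genes therefore depends on the length used.

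The F1 head, which holds the catalytic sites, and its central stalk had a median of -0.033 over 5 genes, none called. Atp5b had 127026 and 124844 normalized counts in WT_CTCF and 121993 and 124153 in MUT_CTCF, a log2 fold change of -0.033 ± 0.018 (SE). Atp5a1 had 66349 and 67391 against 66729.5 and 67364, with overlap and a log2 fold change of 0.0038 ± 0.021 (SE). Both lay closer to 0 than the median of the complex, and the nearest libraries of Atp5b were 691 counts apart. Atp5d, Atp5e and Atp5c1 had log2 fold changes from -0.087 to -0.023. The 4 genes of the peripheral stalk, which holds the head still, were all lower in both MUT_CTCF libraries (-0.084 to -0.065, none called). Such a separation held for 22.3% of all tested genes. In the stalk gene Atp5o, 44% of the exon bases also lie in other genes. The 3 genes of the membrane part, Atp5j2, Atp5k and Atp5l, had -0.084, -0.13 and -0.11, none called. Atp5s and Atp5sl, whose symbols fit the rule but whose products are not structural subunits, had 0.00046 and -0.10. Without them the median of the complex was -0.066.

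No full order of the complexes by their changes held in every pair of libraries. Medians were -0.036 in complex II, -0.049 in complex III, -0.11 in complex IV and -0.066 in complex V, but between single pairs of a MUT_CTCF and a WT_CTCF library they ran from -0.063 to -0.035 in complex III, from -0.16 to -0.041 in complex IV and from -0.081 to -0.033 in complex V. These ranges overlap each other and that of complex II, but the complexes share the same libraries. Within a pair, complex IV had the lowest median of complexes II to V, with 1 exception. Between WT_CTCF replicate 2 and MUT_CTCF replicate 1, complex III had -0.048 and complex IV -0.041. With WT_CTCF replicate 2 left out, the median was -0.074 in complex II and -0.15 in complex IV. Without MUT_CTCF replicate 1 it was -0.035 in complex II and -0.056 in complex IV. With the trend on exon length and GC content removed, complex III stood at -0.031, complex IV at -0.071 and complex V at -0.050.

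Summed levels gave the same direction. The CPM of all members summed to 10810.5 and 10663 in WT_CTCF and 10421 and 10412 in MUT_CTCF, a log2 ratio of -0.044. Complex IV summed to 1168 and 1129.7 against 1114.5 and 1064, a log2 ratio of -0.077. Complex V summed to 7255 and 7178 against 7007 and 7030.3, complex III to 1589 and 1578 against 1533 and 1548, and complex II to 711 and 693 against 680.0 and 685.5, each with a log2 ratio of -0.040. Both MUT_CTCF libraries were below both WT_CTCF libraries in each complex and cytochrome c alone overlapped. An exact permutation test of 2 against 2 libraries cannot give a two-sided p under 0.333, so these sums carry no test.

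**Figure D5:**
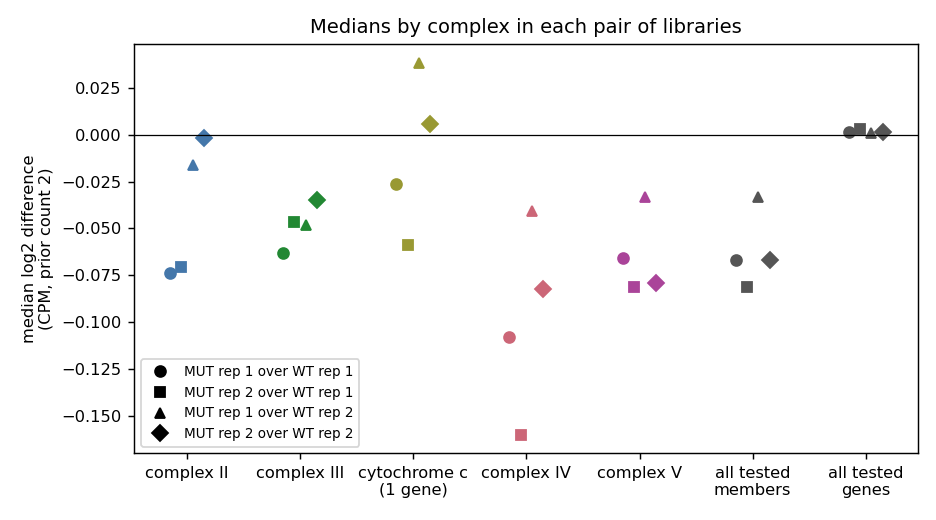
Median log2 difference in CPM (y axis, prior count 2) over the members of each complex in each of the 4 pairs of a MUT_CTCF and a WT_CTCF library (symbols). The medians of complexes II to V lie below 0 in every pair, from -0.16 in complex IV to -0.0019 in complex II, their ranges overlap, and all tested genes lie near 0.

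Other genes of the pathway were counted from lists. Of 36 tested complex I subunits, which bring electrons in from NADH, 34 lay below 0, with a median of -0.065. Of all tested genes 49.2% lay below 0, and of abundant genes under 1000 bases 70%. edgeR called 5.56% of these subunits lower, against 1.61% of all tested genes and 6.63% of abundant genes under 1000 bases. Both MUT_CTCF libraries lay below both WT_CTCF libraries for 41.7% of the subunits. This held for 22.3% of all tested genes and 43.5% of abundant genes under 1000 bases. Ndufb3 fell (log2 fold change -0.30 ± 0.077, adjusted p = 0.0167 from edgeR), from 1361 and 1383 to 1142 and 1090.2 normalized counts. Ndufab1, the mitochondrial acyl carrier protein, fell (-0.16 ± 0.046, adjusted p = 0.0357 from edgeR), and no complex I subunit rose by edgeR or DESeq2, nor at an unadjusted p under 0.05. With 1 library left out in turn, at most 1 of these subunits was called. Of 40 listed assembly factors of complexes II to V, 24 were found by symbol in the count table and 22 were tested. Those not found, among them Coa3, Cox14 and Cox20 of complex IV, were not examined. Among the 22 tested factors, 12 lay below 0, with a median of -0.0023. None was called by edgeR's quasi-likelihood test or DESeq2. At an unadjusted p under 0.05, 1 was lower and 1 higher. The smallest p belonged to Cox17, the copper chaperone of complex IV, with -0.26 ± 0.081 (adjusted p = 0.0700 from edgeR), then to Taco1 with 0.19 and Cox11 with -0.14. Among 18 tested regulators of respiratory genes none was called by edgeR or DESeq2 and 1 was lower at an unadjusted p under 0.05. Their median was -0.022, and the smallest p belonged to Peo1 (-0.14), Gabpb1 (-0.10) and Yy1 (-0.073).

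Of 12 tested subunits from the mitochondrial genome, 9 lay above 0 and 3 below, the lowest at -0.71. Of these genes, 3 rose and 0 fell by edgeR, with a median of 0.037, and 0 were lower at an unadjusted p under 0.05 or by DESeq2. Over all tested genes, edgeR called 1.56% higher. mt-Nd5 rose from 26750.4 and 26823 to 32714 and 30855 normalized counts (log2 fold change 0.25 ± 0.026, adjusted p = 4.43e-10 from edgeR). mt-Nd6 rose by 0.17 ± 0.043 (adjusted p = 0.0171) and mt-Co1, the catalytic subunit of complex IV, by 0.056 ± 0.016 (adjusted p = 0.0319), both from edgeR. The MUT_CTCF replicates of mt-Co1 differed by more than the gap to WT_CTCF, and without MUT_CTCF replicate 1 the median of the list was -0.014. Without any 1 library at most 1 of these genes was called.

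Among 7 respiratory genes linked to hypoxia, Ndufa4l2 rose from 78.1 and 75.2 to 290.5 and 282 normalized counts (log2 fold change 1.90 ± 0.20, adjusted p = 2.82e-10 from edgeR). Its partner Ndufa4, now placed in complex IV, fell from 4470.1 and 4251 to 3824 and 3927 (-0.17 ± 0.047, adjusted p = 0.0273 from edgeR). Cox4i1, the ubiquitous subunit 4 of complex IV left out by the rule, fell from 22834 and 23313 to 21014 and 21709 (-0.11 ± 0.027, adjusted p = 0.0110 from edgeR). Neither Ndufa4 nor Cox4i1 was called with any 1 library left out. The size of the change in Cox4i1 was near the median of the complex IV members.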

How the data were processed

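RNA-seq of 2 WT_CTCF and 2 MUT_CTCF libraries was used. Per the methods, the authors used Trim Galore 0.4.4 for trimming and STAR for alignment to mm9, and deposited raw counts of uniquely mapped reads per gene from HTSeq-count 0.9.1. The methods give days of auxin for these lines but do not state the time at RNA extraction. The annotation and strand setting of the counting are not given in the sources used here. Where genes overlap on opposite strands, their reads may not be separable. Counting of multiply mapped reads was not used, which lowers genes with close copies. A second deposited table, the authors' own edgeR comparison (log2 fold change, log2 CPM, p-value and FDR), was not used.

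GENCODE M1 (NCBIM37, mm9) named 37205 of the 37620 identifiers. Genes were kept by edgeR's filterByExpr (minimum count 10), scaled by TMM and tested with glmQLFit and glmQLFTest (edgeR 4.0.16, R 4.3.3) on group alone, with Benjamini-Hochberg adjustment over 16264 genes. Normalized counts were scaled to the average effective library, and RPKM was computed here. The standard error came from the F statistic. The fit was tested on simulated data. Counting intervals and floors cover counting error only.

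Samples were grouped by the titles. Members and lists were chosen with earlier results of these data known. Values in every library were given for members with an adjusted p under 0.05, for the 2 highest members per length in each complex, for isoform families, and for all complex II subunits, Cyc1 and Cycs. Uqcrh, Uqcr11 and the members of a complex named beside them were added after their values were seen. In related lists, members with an adjusted p under 0.05, or the 3 with the smallest p, were named. The alternatives were DESeq2 1.42.0, DESeq2 size factors, library size only, other filters, the exact test, a replicate block, removal of a length and GC trend, and each library left out. Lengths from the union of exons, leaving out members with shared windows, and a limit of 1000 normalized counts within complexes were chosen after seeing the data. Promoters came from RefSeq (GRCm38.p6), with 9 members unmatched, and protein sequences were not used here.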

Additional observations from a re-analysis of the deposited data

How the results depend on the processing

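With a library left out, the lone library of its line was taken to vary like the other line. Over all genes, calls higher (253) and lower (262) became 26 and 3 without a filter on low counts, 141 and 161 with DESeq2, and 0 to 140 and 0 to 102 with a library left out, while library size only gave 152 lower. DESeq2 gave no adjusted p for 6622 genes, of which edgeR had called 37 higher and 10 lower. The 2 members called lower became 4 with DESeq2 size factors, with at least 10 reads in every library and with the exact test, 1 with library size only and with DESeq2, 0 without a filter and at the study's criterion, and 0 to 3 with a library left out. Whether the replicate numbers pair the libraries is not known, as the labels give only a number. Same-numbered libraries deviated with a correlation of -0.019 over the tested genes, which cannot exclude a small shared effect. A replicate block called 5 members and 1 assembly factor lower, gave Atp5s -0.015, and moved calls over all genes to 326 higher and 372 lower. The members then called were Atp5g1, Cox7b, Cox6b1, Uqcrh and Cox6c, complex I had 3 calls lower and the mitochondrial genome 4 higher, and no other list call changed.

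Medians kept their sign in complexes II to V under every alternative run. With a library left out, the member median ran from -0.074 to -0.046, complex II from -0.074 to -0.0094, complex III from -0.069 to -0.030, complex IV from -0.15 to -0.056 and complex V from -0.075 to -0.044. Library size only gave complex III a median of -0.036, and log2 ratios of summed levels of -0.028 in complexes III and V. With the length and GC trend removed, the medians were -0.031 in complex III, -0.071 in complex IV, -0.050 in complex V, -0.038 in complex I, 0.10 in mitochondrial genome subunits and -0.052 in regulators. Complex I calls lower (2) were 1 with library size only and DESeq2, 0 without a filter and 0 to 1 with a library left out, where the median ran from -0.084 to -0.034. The exact test called 1 assembly factor lower, and their median ran from -0.038 to 0.034 with a library left out. Mitochondrial genome calls higher (3) were 1 without a filter and 0 to 1 with a library left out, with a median from -0.014 to 0.085. Among hypoxia-linked genes the 2 calls lower were 1 with library size only and DESeq2, 0 without a filter and 0 with any library left out, and the call higher was 0 to 1 with a library left out; DESeq2 gave it no adjusted p. The causes were not tested.

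Single members near 0 changed sign. With a library left out, Atp5a1 ran from -0.0078 to 0.014, Atp5s from -0.28 to 0.24, Cox5a from -0.036 to 0.041, Cox5b from -0.015 to 0.11, Cox7a1 from -0.051 to 0.23, Cox7a2l from -0.032 to 0.077, Cycs from -0.043 to 0.022, Sdhd from -0.079 to 0.013 and Uqcrc2 from -0.029 to 0.0057. Library size only gave Cycs 0.0019 and Uqcrc2 0.0017, and no filter gave Atp5s -0.00078. With 2 libraries a line, members with few counts, such as Cox8c and Cox7b2, had the widest errors.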
